A study of Mus musculus with 22 samples.

Results

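The genes described here are 10 markers of inhibitory interneurons and their neuropeptides: *Gad1*, *Gad2*, *Slc32a1*, *Lhx6*, *Sst*, *Pvalb*, *Vip*, *Npy*, *Cck* and *Reln*. They were taken by symbol from a table of 55385 genes counted in 22 RNA-seq libraries, and all 10 were in the table and passed the filter on low counts in every comparison. None is triplicated in the mouse model.

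The study compared Ts66Yah mice, a model of Down syndrome, with their wild-type (wt) control littermates. Ts66Yah mice carry an extra minichromosome with the distal part of mouse chromosome 16, derived from the Ts65Dn line by CRISPR/Cas9 removal of its centromeric segment of chromosome 17, and the line descends from 1 founder. That founder was crossed to C57BL/6NCrl, and the line was later kept on the mixed B6C3B background, from C3B and C57BL/6J mice. Each of 11 male mice aged 5 to 6 months, 5 wt and 6 Ts66Yah, gave RNA of both regions, hippocampus (HIP) and entorhinal cortex (EC). This gave 5 wt HIP, 6 Ts66Yah HIP, 5 wt EC and 6 Ts66Yah EC libraries, each of 1 mouse.

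Cortical and hippocampal interneurons release GABA onto their neighbours and are a minority of the neurons in both regions. *Gad1* and *Gad2* encode the enzymes that make GABA from glutamate, and *Slc32a1* encodes the transporter that loads it into vesicles. Interneurons are divided by the proteins and peptides they carry, of which parvalbumin, somatostatin and vasoactive intestinal peptide mark the classical classes, while neuropeptide Y, cholecystokinin and reelin mark further subsets and are also made by other cells. *Cck* in particular is expressed by many excitatory neurons, so that in whole tissue it is no marker of interneurons alone. In dissected tissue, fewer cells of a class and less RNA per cell cannot be told apart.

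The HIP and EC labels were checked against markers. *Prox1*, a gene of dentate granule cells, had a log2 difference of -3.35 between EC and HIP in wt, and *Tbr1*, a gene of cortical projection neurons, one of 1.42. Their lists were not uniform. Of 6 hippocampal excitatory genes, 5 were called as lower in wt EC and 1 as higher (edgeR adjusted p under 0.05). Of 8 cortical excitatory genes, 5 were called as higher and 1 as lower. Over all tested genes, 23.4% were called as higher and 24.3% as lower. Libraries held 25.9 to 50.1 M counted reads, with a median of 34.7 M. Genes of other tissue varied between dissections. The summed level of 5 choroid plexus genes ran from 110 to 3266 CPM (counts per 1 M counted reads) in wt HIP and from 761 to 2789 in Ts66Yah HIP, and that of 8 genes of striatal projection neurons was 59.6 to 80.8 CPM in the HIP libraries and 145 to 287 in the EC. The part of either in the values of the 10 genes was not tested.

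Where the genes lie and the letters before their starts are given first, for the peptide genes on which the regional results turn. In GRCm38, *Npy* is at chr6:49822710-49829507 on the plus strand, *Vip* at chr10:5639218-5647617 on the plus strand, *Cck* at chr9:121489824-121495694 on the minus strand and *Sst* at chr16:23889573-23890958 on the minus strand. *Sst* is thus on chromosome 16, as is the extra segment, but it lies 60.8 Mb before the segment's first gene at 84714140 and is present in the usual copies. The RefSeq promoter windows (GRCm38.p6) of all 10 genes were searched over 250 bases upstream, on both strands, for the cAMP response element TGACGTCA, for its first 5 letters TGACG (which lie inside it) and for the TATA box TATAAA. The bases upstream of the RefSeq starts are printed 5′ to 3′ with every match of these in capitals, 150 bases for *Vip* (chr10:5639068-5639217), *Cck* (chr9:121495695-121495844) and *Npy* (chr6:49822560-49822709), and for *Sst* 30 bases around the match (chr16:23890874-23890903), since the GENCODE model of *Sst* starts 114 bases further upstream.
Sst: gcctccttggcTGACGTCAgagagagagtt
Vip: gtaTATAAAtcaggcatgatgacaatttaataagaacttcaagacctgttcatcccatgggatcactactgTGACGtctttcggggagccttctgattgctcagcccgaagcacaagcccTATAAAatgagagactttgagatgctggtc
Cck: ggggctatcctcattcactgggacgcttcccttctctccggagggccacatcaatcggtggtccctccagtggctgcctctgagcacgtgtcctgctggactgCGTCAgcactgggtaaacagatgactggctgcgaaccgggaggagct
Npy: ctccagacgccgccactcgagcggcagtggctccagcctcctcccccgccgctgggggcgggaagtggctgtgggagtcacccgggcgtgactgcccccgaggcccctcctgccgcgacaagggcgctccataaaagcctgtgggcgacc
The full element was present in the window of *Sst* alone among the 10 genes, beginning 48 bases before the start, and in 1.55% of all 32851 windows. The 5-letter form was in the windows of *Sst*, *Vip*, *Cck* and *Gad2*, and in 17.8% of all windows. The TATA box was in those of *Vip* and *Gad1*, and in 12.4% of all windows, whereas *Npy* held none of these letters. The homeodomain core TAATTA was in none of the 10 windows and in 4.84% of all. A match describes the letters, and no binding was measured.

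Compared per kilobase of merged exons, *Sst* was the most abundant of the 10 in each group and *Reln* and *Lhx6* the least. In wt HIP the group means were 197 CPM per kilobase for *Sst*, 102 for *Cck*, 62.8 for *Npy*, 53.7 for *Gad1*, 34.03 for *Pvalb*, 28.8 for *Gad2*, 19.9 for *Slc32a1*, 6.63 for *Vip*, 3.53 for *Lhx6* and 3.36 for *Reln*. The libraries of neighbours in this order overlapped from *Sst* down to *Gad1*, and again for *Lhx6* and *Reln*, while every step from *Gad1* to *Lhx6* separated the libraries. In wt EC the second place went to *Npy* at 128 CPM per kilobase, with *Cck* at 102, and *Vip* stood at 22.04 beside *Slc32a1* at 22.4, their libraries overlapping.

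**Figure D1:**
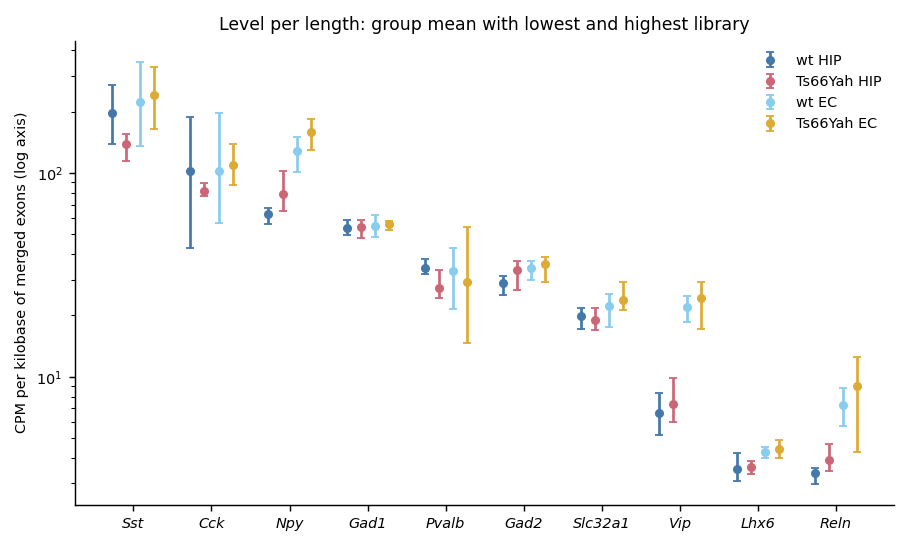
Level per length of the 10 genes in the 4 groups, in CPM per kilobase of merged exons on a log axis, ordered by wt HIP; points are group means and bars run from the lowest to the highest library. *Sst* is on top at 139 to 242 CPM per kilobase, and *Vip*, *Npy* and *Reln* sit higher in the EC than in the HIP.

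*Gad1*, the first of the genes of GABA synthesis, had the narrowest range of the 10 over the HIP libraries. It read 378, 393, 406, 423 and 449 CPM in wt HIP, and 366 to 450 CPM with a median of 417 in Ts66Yah HIP. The 2 groups covered the same range, with means of 410 ± 27.4 (SD, n = 5) and 413 ± 32.8 (n = 6), a log2 fold change of 0.01 ± 0.06 (SE). The 95% interval of this difference ran from -0.12 to 0.15 on the log2 scale, or from 0.919-fold to 1.11-fold. In the EC *Gad1* was also level, at 418 ± 40.0 CPM in wt and 427 ± 13.9 in Ts66Yah, with a log2 fold change of 0.03 ± 0.06.

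*Gad2* read 147, 167, 169, 178 and 185 CPM in wt HIP and 157 to 217 CPM with a median of 197 in Ts66Yah HIP. All Ts66Yah libraries but mouse 5 at 157 CPM were above the highest wt library. The log2 fold change was 0.21 ± 0.08 (edgeR adjusted p = 0.299, unadjusted p = 0.0169), and it was not called. The ratio of *Gad2* to *Gad1* within a library, which does not depend on the scaling of libraries, was -1.36 to -1.24 on the log2 scale in wt HIP and -1.22 to -0.98 in Ts66Yah HIP, with no overlap. Such ratios to *Gad1* were formed for the other 9 members, and those of *Gad2* and *Pvalb* separated the genotypes in the HIP. Over all other tested genes, 0.878% had ratios to *Gad1* that did so there. In the EC 0 of 9 separated, against 0.651% of all other tested genes, and the ratios of *Gad2* to *Gad1* were -1.18 to -0.91 in wt and -1.30 to -0.92 in Ts66Yah.

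*Slc32a1* read 48.0, 54.7, 55.7, 59.5 and 60.6 CPM in wt HIP and 47.3 to 60.9 CPM with a median of 51.8 in Ts66Yah HIP, with a log2 fold change of -0.06 ± 0.08. In the EC it was 62.5 ± 9.56 CPM in wt and 66.6 ± 8.02 in Ts66Yah, whose mouse 5 was highest at 81.9. Neither difference was called. *Slc32a1* shares 697 exon bases with the antisense gene *Gm14205*, and the strand setting of the counting is not given in the sources used here.

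No member was called between genotypes, in either region, by the main test. In the HIP 0 of 10 passed an adjusted p of 0.05, where 109 of 18452 tested genes (0.591%) did. At an unadjusted p under 0.05 there were 5 of 10, *Pvalb* and *Sst* with lower values in Ts66Yah and *Npy*, *Reln* and *Gad2* with higher values, where 11.9% of all tested genes passed that mark. In the EC 0 of 10 were called, against 0.283% of all tested genes, and 1 of 10 had an unadjusted p under 0.05, against 6.25%. In the HIP the median of the 10 log2 fold changes was 0.02, beside 1.39e-05 over all tested genes, and in the EC 0.09, beside -0.00446. By level, 0 of 10 members had libraries that separated the genotypes in either region, where 1.87% of tested genes did in the HIP and 0.957% in the EC.

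**Figure D2:**
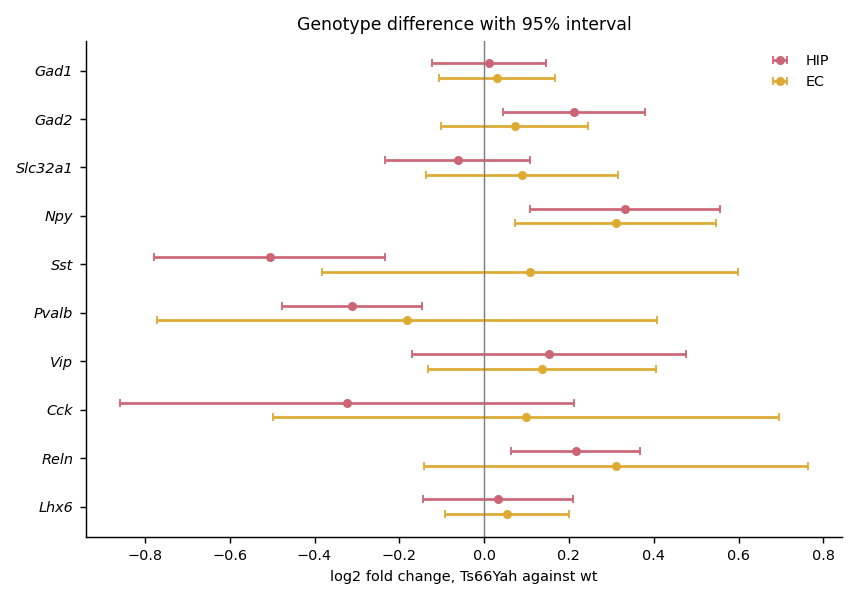
Log2 fold change of Ts66Yah against wt for the 10 genes in the HIP and the EC, with 95% intervals. In the HIP the intervals of *Gad2*, *Npy* and *Reln* lie above 0 and those of *Sst* and *Pvalb* below it, and in the EC that of *Npy* alone lies to one side of 0, while none passed the adjusted threshold.

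*Lhx6*, a transcription factor of interneurons that arise in the medial ganglionic eminence, the source of the *Sst* and *Pvalb* classes, differed between genotypes by less than the spread of libraries. It read 14.9, 15.2, 16.2, 18.2 and 20.2 CPM in wt HIP and 16.1 to 18.6 CPM with a median of 17.6 in Ts66Yah HIP, the wt libraries spanning the Ts66Yah ones. In the HIP the log2 fold change was 0.03 ± 0.08. In the EC the means were 20.6 ± 0.999 and 21.4 ± 1.54 CPM, a log2 fold change of 0.05 ± 0.07. The 95% interval in the HIP ran from 0.906-fold to 1.16-fold.

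*Sst* encodes somatostatin, an inhibitory peptide of dendrite-targeting interneurons. In wt HIP it read 100, 131, 141, 143 and 194 CPM, and in Ts66Yah HIP 82.7, 97.6, 98.9, 104, 105 and 112 CPM. The 4 highest libraries of the 11 were all wt, and wt mouse 1 at 100 CPM was the one that fell within the Ts66Yah range. The means were 142 ± 34.1 and 99.99 ± 9.85 CPM, a log2 fold change of -0.51 ± 0.13, with an edgeR adjusted p of 0.119 (unadjusted p = 0.0014). This call depended on the test: DESeq2, which called 2.05% of the genes it tested in the HIP, called *Sst* at -0.51 with an adjusted p of 0.00865, and limma voom gave an adjusted p of 0.143. Without wt mouse 1 the edgeR adjusted p was 0.0216, and without each other library it was uncalled, up to 0.25, with the smallest difference, -0.37, without wt mouse 5. In a fit of all 22 libraries it was 0.437. Within ranges of animal numbers in the titles, the difference was -0.40 in the lower range (2 wt, 2 Ts66Yah) and -0.74 in the upper (2 wt, 4 Ts66Yah). Neither range holds wt mouse 1, the library that fell within the Ts66Yah values.

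In the EC the genotypes overlapped for *Sst*. It read 97.8, 125, 146, 185 and 253 CPM in wt and 118 to 239 CPM with a median of 158 in Ts66Yah, with a log2 fold change of 0.11 ± 0.23 and a 95% interval from -0.38 to 0.60. The test of the difference between regions gave 0.62 ± 0.28 on the log2 scale for *Sst* (edgeR unadjusted p = 0.04, adjusted p = 1). No member and no other gene was called in that test (0% of 19074), and DESeq2 also called 0 genes. In it 388 genes (2.03%) and 1 of 10 members had an unadjusted p under 0.05. The test had no term for the animal, and with the animal as a block 726 genes had such a p and 0 were called.

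*Pvalb* encodes parvalbumin, the calcium buffer of fast-spiking basket cells. It read 33.3, 33.6, 34.2, 36.8 and 39.3 CPM in wt HIP, and 25.2, 27.3, 27.6, 28.0, 28.4 and 34.7 CPM in Ts66Yah HIP. One Ts66Yah library, mouse 2 at 34.7 CPM, lay among the wt values and the other 5 were below all of them. The means were 35.4 ± 2.55 and 28.6 ± 3.23 CPM, a log2 fold change of -0.31 ± 0.08, with an edgeR adjusted p of 0.108 (unadjusted p = 0.00119). DESeq2 called it at an adjusted p of 0.013, and limma voom did not, at 0.088. Without Ts66Yah mouse 2 the edgeR adjusted p was 0.011 at a log2 fold change of -0.38. Without each other library it was uncalled, with log2 fold changes from -0.33 to -0.27 and adjusted p up to 0.227, and a fit of all 22 libraries gave 0.731. Within the ranges of animal numbers the difference was -0.39 and -0.23.

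Set against *Gad1* in the same library, *Pvalb* separated the genotypes in the HIP, with a log2 ratio of -3.57 to -3.49 in wt and -4.16 to -3.65 in Ts66Yah. The wt ratios had an SD of 0.03, the smallest of any member's ratio to *Gad1* in any group. In the EC *Pvalb* was among the most variable of the 10, at 22.4 to 44.7 CPM in wt and 15.3 to 56.8 CPM in Ts66Yah, where mouse 5 gave the highest and mouse 4 the lowest value. Its log2 fold change there was -0.18 ± 0.27, and -0.46 without Ts66Yah mouse 5, neither called.

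Of 13 genes of parvalbumin cell physiology and perineuronal nets, the lattice that surrounds these cells, 0 were called in either region. Of all tested genes, 0.591% were called in the HIP and 0.283% in the EC. In the HIP 5 of the 13 had an unadjusted p under 0.05, where 11.9% of all tested genes did. *Syt2*, the synaptotagmin of fast inhibitory terminals, had means of 61.3 CPM in wt and 42.9 CPM in Ts66Yah, or -0.52 on the log2 scale (edgeR adjusted p = 0.179). *Hapln4*, a link protein of perineuronal nets, had a value of -0.37, while the matrix genes *Ncan* and *Hapln1* had 0.43 and 0.24. The list's median was 0.01. *Ncan* had the smallest p of the list in both regions (edgeR adjusted p = 0.0767 in the HIP and 0.166 in the EC).

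Lists of other neurons were read beside *Sst* and *Pvalb* in the HIP, with differing directions. Among 8 cortical excitatory genes 6 were lower and 0 called, with *Fezf2* at 25.4 and 19.6 CPM, or -0.37 on the log2 scale (edgeR adjusted p = 0.0729), and a list median of -0.08. Among 8 general excitatory genes 6 were lower, with *Slc17a6* at -0.51, *Tbr1*, held by both lists, at -0.23, and a median of -0.15. The summed level of the latter list overlapped between genotypes, at 5751 to 6700 CPM in wt and 5703 to 7173 in Ts66Yah. Among 6 hippocampal excitatory genes 4 were higher, with a median of 0.02, and among 8 striatal genes 4 were higher and 4 lower, with a median of 0.03, and 0 were called in either. Their part in the values of *Sst* and *Pvalb* was not tested.

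*Npy* encodes neuropeptide Y, an inhibitory peptide of neurogliaform and of many somatostatin cells. It read 32.0, 32.6, 37.4, 37.5 and 38.2 CPM in wt HIP and 36.8, 37.9, 43.0, 45.4, 47.6 and 58.1 CPM in Ts66Yah HIP. In the EC it read 56.9, 62.7, 74.9, 83.6 and 85.1 CPM in wt and 73.5, 90.3, 91.1, 91.2, 91.5 and 104 CPM in Ts66Yah. In the HIP 4 of the 6 Ts66Yah libraries were above every wt library, and in the EC all but the one at 73.5 CPM were. The log2 fold changes were close to each other, 0.33 ± 0.10 in the HIP (edgeR adjusted p = 0.220, unadjusted p = 0.00662) and 0.31 ± 0.11 in the EC (adjusted p = 0.646, unadjusted p = 0.0143), or 1.26-fold and 1.24-fold. Their difference was -0.02, with a 95% interval from -0.35 to 0.31. It was the one member with an unadjusted p under 0.05 in both regions, which come from the same mice. No alternative called *Npy* in either region.

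Within the ranges of animal numbers, *Npy* was higher in Ts66Yah by 0.44 and 0.24 on the log2 scale in the HIP and by 0.21 and 0.40 in the EC. Activity-regulated genes, of which 11 were listed because peptide genes are among the targets of neuronal activity, varied widely beside it. In the EC the list's median log2 fold change was 0.74 with 10 of 11 higher and 0 called, with the smallest p for *Fos* at 1.44 (edgeR adjusted p = 0.735), and its summed level was 257 to 677 CPM in wt and 253 to 1463 in Ts66Yah. In the HIP the median was 0.22 and the sums were 304 to 584 and 278 to 651 CPM. Ts66Yah EC mouse 5 had both the highest sum, 1463 CPM, and the highest *Npy*, 104 CPM, whereas mouse 3 had the lowest sum, 253 CPM, and *Npy* at 90.3 CPM. The part of this list in the *Npy* values was not tested.

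*Vip* encodes vasoactive intestinal peptide, carried by interneurons that inhibit other interneurons. It read 17.6, 19.4, 19.8, 27.6 and 28.4 CPM in wt HIP and 20.5 to 33.7 CPM with a median of 23.8 in Ts66Yah HIP. In the EC it read 58.2 to 99.5 CPM with a median of 82.7 in Ts66Yah, and 63.5 to 85.0 CPM in wt. The log2 fold changes of 0.15 ± 0.15 (HIP) and 0.14 ± 0.13 (EC) were both within the spread of libraries. Their intervals, -0.17 to 0.48 and -0.13 to 0.40 on the log2 scale, include the values measured for *Npy*.

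*Reln* encodes reelin, a secreted glycoprotein made in the adult by interneurons and by layer II cells of the EC. In wt HIP it read 71.1, 78.3, 81.3, 83.6 and 84.7 CPM, and in Ts66Yah HIP 81.7, 90.2, 90.4, 90.6, 91.6 and 111 CPM. All Ts66Yah libraries but mouse 5 at 81.7 CPM were above the highest wt library. The log2 fold change was 0.22 ± 0.07 (edgeR adjusted p = 0.244, unadjusted p = 0.0092), and it was not called under any alternative. In the EC the value was larger but noisier, at 0.31 ± 0.21, with 136 to 209 CPM in wt and 102 to 298 CPM in Ts66Yah, where mouse 5 was lowest and mouse 4 highest. Reelin-expressing Cajal-Retzius cells had low markers throughout. The summed level of *Trp73*, *Lhx1*, *Lhx5* and *Ebf3* was 7.56 to 10.7 CPM in wt HIP and 6.73 to 13.5 in Ts66Yah HIP. In the EC it was 1.51 to 1.94 CPM in wt and 0.806 to 1.945 in Ts66Yah. *Reln* shares 246 exon bases with the antisense gene *Gm10475*.

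*Cck* encodes cholecystokinin, and its libraries differed more than its groups. It read 55.8, 112, 115, 136 and 246 CPM in wt HIP and 101 to 116 CPM with a median of 103 in Ts66Yah HIP. The wt values enclosed the Ts66Yah ones on both sides, with an SD of 69.8 CPM in wt and 6.89 in Ts66Yah. The log2 fold change of -0.32 ± 0.25 rested on wt mouse 5, without which it was 0.02. The same mouse was highest in the EC too, at 256 CPM where the other wt mice read 73.8 to 152, and the log2 fold change there was 0.10 ± 0.28. The highest library was 4.41-fold above the lowest in the HIP and 3.47-fold in the EC, against 1.23-fold and 1.28-fold for *Gad1*.

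**Figure D3:**
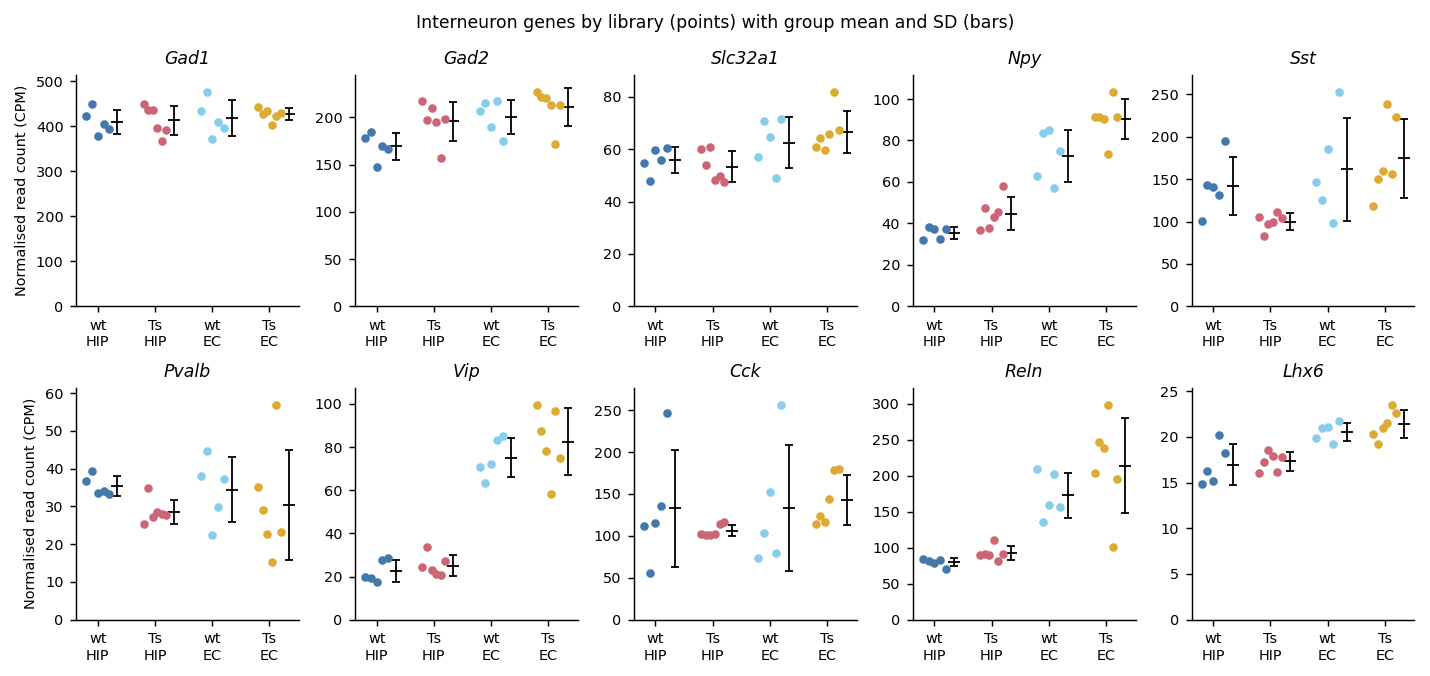
Level of each of the 10 genes by library in CPM on linear axes from 0, in wt and Ts66Yah (Ts) mice, HIP and EC; points are libraries and the bars beside them the group mean and SD. In the HIP the Ts66Yah points of *Sst* and *Pvalb* sit mostly below those of wt and those of *Npy* mostly above, while the wt points of *Cck* spread from 55.8 to 246 CPM.

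More members were called between regions than between genotypes, and the same held over all tested genes. Between genotypes, 0.591% of all tested genes were called in the HIP and 0.283% in the EC. In wt mice, 5 of the 10 genes were called and all 5 were higher in the EC, where 47.7% of all tested genes were called and 23.4% were called as higher in the EC. In Ts66Yah mice 7 of 10 were called, again all higher in the EC, where 54.0% of all tested genes were called and 26.4% as higher. No member was called as lower in the EC in either genotype. The members' median log2 difference was 0.22 in wt and 0.37 in Ts66Yah, against 0.01 over all tested genes in each. These 2 counts were not shown to differ, since no member passed the test of genotype by region.

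*Vip* had the largest regional difference of the 10. It rose from 22.6 ± 5.05 CPM in wt HIP to 75.0 ± 9.05 in wt EC, where the libraries read 63.5, 70.9, 72.3, 83.3 and 85.0 CPM. The log2 difference was 1.74 ± 0.14 in wt (3.34-fold, edgeR adjusted p = 6.82e-07) and 1.72 ± 0.14 in Ts66Yah (3.29-fold, adjusted p = 1.42e-07). Every EC library was above every HIP library, in both genotypes, and all 11 mice were higher in the EC. Groups of libraries did not overlap for 35.4% of tested genes in wt and 32.2% in Ts66Yah.

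*Reln* and *Npy* were close to doubled in the EC. *Reln* was higher by 1.12 ± 0.11 in wt (2.168-fold, edgeR adjusted p = 4.4e-06) and 1.21 ± 0.18 in Ts66Yah (2.31-fold, adjusted p = 6.59e-05). The libraries separated in wt and overlapped in Ts66Yah, where the lowest EC library, mouse 5 at 102 CPM, fell below the highest HIP library at 111 CPM, yet each of the 11 mice was higher in its EC. *Npy* was higher by 1.03 ± 0.11 in wt (2.05-fold, adjusted p = 7.83e-06) and 1.01 ± 0.10 in Ts66Yah (2.01-fold, adjusted p = 1.51e-06), with no overlap and in all 11 mice.

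**Figure D4:**
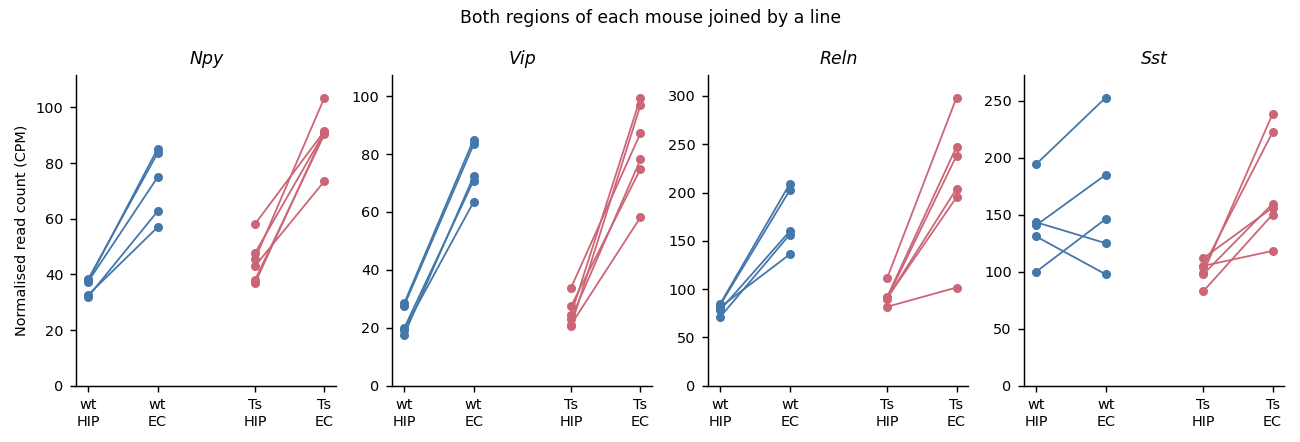
Level of *Npy*, *Vip*, *Reln* and *Sst* in CPM, with the HIP and EC libraries of each mouse joined by a line, wt in blue and Ts66Yah (Ts) in red. All lines of *Npy*, *Vip* and *Reln* rise toward the EC, as do the 6 Ts66Yah lines of *Sst*, while 3 of its 5 wt lines rise.

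*Sst* was called between regions in Ts66Yah mice and not in wt. The log2 difference was 0.80 ± 0.14 in Ts66Yah (1.74-fold, edgeR adjusted p = 0.000273), higher in 6 of 6 mice and with no overlap, and 0.19 ± 0.23 in wt (adjusted p = 0.526), higher in 3 of 5 mice. The Ts66Yah HIP libraries that enter this difference are the ones with the low *Sst* values given above, and the test of genotype by region did not call it. *Cck* had a like pattern, with 0.42 ± 0.11 in Ts66Yah (1.34-fold, adjusted p = 0.00513), higher in 6 of 6 mice, and 0.01 ± 0.38 in wt. Fitted with all 22 libraries, so that the wide wt spread entered, the value for *Cck* was 0.43 and not called (adjusted p = 0.206).

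The remaining members differed by less between regions. *Lhx6* was higher in the EC by 0.28 ± 0.09 in wt (edgeR adjusted p = 0.0191) and 0.30 ± 0.06 in Ts66Yah (adjusted p = 0.000769). The wt call was lost without mouse 1, 2 or 3, with adjusted p of 0.0671, 0.072 and 0.0971. *Gad2* was higher by 0.25 ± 0.08 in wt (adjusted p = 0.0172), a call lost without mouse 4 (0.0625), and by 0.10 ± 0.08 in Ts66Yah (adjusted p = 0.286). With the animal as a block, which uses the pairing of regions within a mouse, *Gad2* was called in Ts66Yah as well, at 0.11 (adjusted p = 0.0261), for 8 of 10 in place of 7, and the wt count stayed at 5. *Slc32a1* was higher by 0.32 ± 0.08 in Ts66Yah (adjusted p = 0.00562) and by 0.17 ± 0.10 in wt (adjusted p = 0.198). *Gad1* and *Pvalb* were level, with 0.03 ± 0.07 and -0.04 ± 0.15 in wt and 0.04 ± 0.05 and 0.08 ± 0.23 in Ts66Yah.

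**Figure D5:**
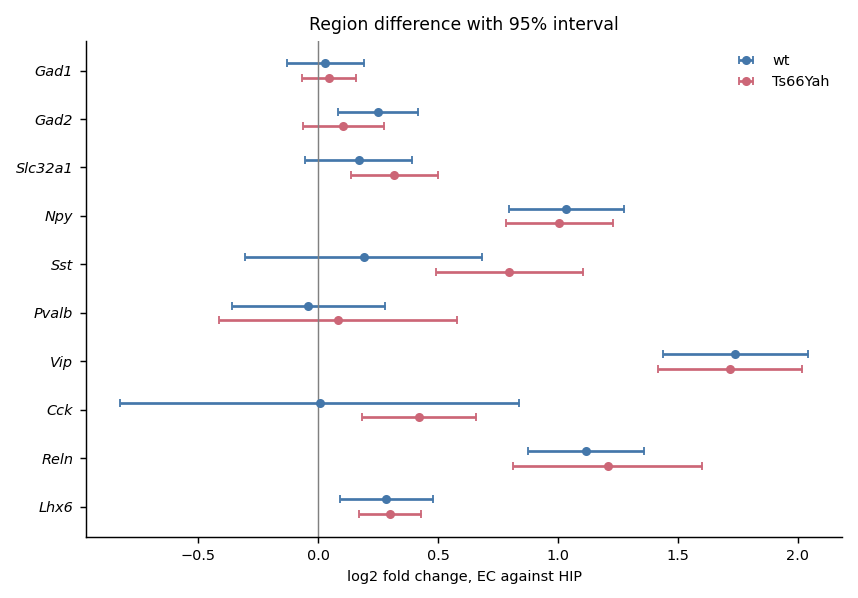
Log2 difference of the EC against the HIP for the 10 genes in wt and Ts66Yah mice, with 95% intervals. *Vip*, *Reln* and *Npy* lie between 1.01 and 1.74 in both genotypes, and *Gad1* and *Pvalb* lie near 0.

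Most of the other neuropeptides and calcium-binding proteins listed for interneurons also had higher values in the EC. The part of excitatory neurons in these values was not tested. Of 16 genes, 9 were called as higher and 1 as lower in wt, with a median of 1.11. In Ts66Yah 10 were called as higher and 1 as lower, with a median of 0.85. Over all tested genes, 23.4% were called as higher and 24.3% as lower in wt, and 26.4% and 27.5% in Ts66Yah. The largest values in wt were 2.34 for *Chodl*, a marker of long-range somatostatin cells, and 2.23 for *Tac2*, which encodes neurokinin B. *Lamp5*, a marker of neurogliaform cells that excitatory neurons also express, came next at 2.19. The level of *Chodl* was low, with means of 0.21 CPM in wt HIP and 1.09 in wt EC. *Tac1*, *Pdyn*, *Crh*, *Cort*, *Penk* and *Calb1* followed at 1.06 to 1.84, while *Sncg* had -0.48. Of 11 genes for peptide processing 6 were called as higher in wt, the convertases *Pcsk1* at 1.17 and *Pcsk2* at 0.76, and *Pam*, *Chga*, *Scg5* and *Scg3* at 0.32 to 0.63, and *Chgb* was lower at -0.50. Striatal genes were higher in the EC libraries as well, 5 of 8 in wt, with a median of 1.13, and their part in these peptide values, *Penk* and *Tac1* included, was not tested.

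Receptor genes differed in both directions. Of 16 receptor and reelin signalling genes, 14 were tested in wt, 6 were called as higher and 5 as lower in the EC. The shares over all tested genes in wt were 23.4% called as higher and 24.3% as lower. The cholecystokinin receptor *Cckbr* had 2.48, with *Cck* itself at 0.01, and the neuropeptide Y receptors *Npy2r* and *Npy1r* had -2.85 and 0.38, with *Npy* at 1.03. The somatostatin receptors *Sstr5*, *Sstr2* and *Sstr1* had 1.895, 1.44 and 1.05 and *Sstr4* had -1.56. *Vipr2*, a receptor for the *Vip* peptide, had 0.52. Levels were low for *Sstr5*, at 0.16 CPM in wt HIP and 0.64 in wt EC, and for *Vipr2*, at 0.60 and 0.87. The reelin receptors *Vldlr* and *Lrp8* and their adaptor *Dab1* had -0.22, -0.18 and -0.32. Among 18 interneuron transcription factors 17 were tested, of which 8 were called as higher and 3 as lower, with *Nr2f2* and *Nr2f1*, factors of the caudal ganglionic eminence that other cells share, at 1.16 and 1.06. *Dlx6*, *Satb1*, *Maf* and *Sox6* had 0.42 to 0.57, and *Prox1*, *Adarb2* and *Npas1* had -3.35, -0.87 and -0.35. *Prox1* is also the dentate granule cell gene used above to check the labels, and its value is no measure of interneurons alone.

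For GABA handling, 5 of 10 genes were called as higher in wt EC, among them the transporters *Slc6a13* at 1.585 and *Slc6a11* at 0.26 and the genes *Nlgn2* and *Abat* at 0.33 and 0.22, and *Gphn*, which encodes the scaffold gephyrin, had -0.29. Of the 13 genes of parvalbumin cells and nets 5 were called as higher, *Tac1*, *Cox6a2*, *Erbb4*, *Ncan* and *Kcnc2* at 0.23 to 1.84. Another 6 were called as lower, among them *Syt2*, *Acan*, *Hapln4*, *Vcan* and *Hapln1* at -0.945 to -0.20, beside *Pvalb* at -0.04. For both lists, 23.4% of all tested genes were called as higher in wt EC and 24.3% as lower.

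Between genotypes, *Htr3a* was the one gene called among the interneuron lists. It encodes the ionotropic serotonin receptor that marks interneurons of the caudal ganglionic eminence, to which *Vip* cells belong. It read 8.47, 8.79, 10.2, 10.5 and 10.9 CPM in wt HIP and 12.9, 13.3, 13.96, 14.6, 16.6 and 18.1 CPM in Ts66Yah HIP. The log2 fold change was 0.61 ± 0.10 (edgeR adjusted p = 0.0126), and the groups did not overlap, as for 1.87% of tested genes. A term for the range of animal numbers, which leaves out wt mouse 1, gave 0.55 with an adjusted p of 0.0614. In the EC it was 10.0 ± 1.34 CPM in wt and 12.8 ± 2.18 in Ts66Yah, with a log2 fold change of 0.35 ± 0.13 (adjusted p = 0.672).

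No other gene of these lists was called between genotypes. Among 15 tested peptide and calcium-binding genes in the HIP, 12 had higher and 3 lower values, with a median of 0.20 and *Htr3a* as the single call. *Calb2*, *Tac2* and *Cnr1*, the cannabinoid receptor of *Cck* basket cells, had 0.56, 0.49 and 0.25 with adjusted p of 0.363, 0.33 and 0.229 by edgeR. The receptor list had 0 calls among 13 genes tested in the HIP, with the smallest p for *Sstr3* at -0.38. In the EC it had 0 among 14, with the smallest p for *Sstr5* at -1.004, a gene of low level. Its means were 0.64 CPM in wt EC and 0.32 in Ts66Yah EC. Of the transcription factors 0 were called in either region, with *Satb1*, a factor of *Sst* cells, at -0.21 in the HIP, and *Dlx6os1* at 0.34 in the EC. The GABA transport and breakdown list had 0 calls, with *Slc6a12* at 0.999 in the HIP, where its means were 0.59 CPM in wt and 1.17 in Ts66Yah. The peptide processing list had 0, with *Pam* at 0.16 in the HIP and *Scg5* at 0.61 in the EC.

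Genes of other cell types were not called in either region. In the HIP the median log2 fold change was -0.02 for astrocyte, 0.02 for oligodendrocyte, -0.13 for microglial and 0.03 for endothelial genes, and -0.20 for choroid plexus genes. In the EC the medians were -0.06, 0.07, -0.14 and -0.04, and -0.31 for the striatal list.

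Members seldom varied together from mouse to mouse in both regions. For each gene the deviation of log2 CPM from its group mean was correlated over the 11 HIP and, separately, the 11 EC libraries, and the lower of both Pearson r was taken as likeness. The points share library depth and dissection, and the values are descriptions. The most alike pair of members was *Gad1* with *Gad2*, with an r of 0.88 (HIP) and 0.47 (EC), and *Sst* with *Cck* had 0.45 and 0.78. Likeness does not show pairs that varied together in 1 region alone or in opposite ways. In the EC *Slc32a1* with *Lhx6* had 0.775 and *Gad2* with *Lhx6* -0.772, beside 0.064 and 0.181 in the HIP.

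The genes most like each member among 14369 candidates were mostly not interneuron genes. *Gad2* was nearest to *Snx13* at 0.90 and to *Erbb4*, a neuregulin receptor of interneurons, also at 0.90. *Reln* was nearest to *Grik1* at 0.86, a kainate receptor subunit that interneurons express and that lies on chromosome 16 in the triplicated segment. *Cck* was nearest to *Cox5a* and *Stub1*, both at 0.97, and 136 genes had a likeness over 0.8 to it, more than to any other member. For *Gad2* there were 33 such genes, for *Sst* and *Slc32a1* 6 each, and for *Npy* and *Lhx6* 0. The nearest were *Rassf4* (0.81) and *Fmn1* for *Gad1*, *Larp6* (0.84) and *Aatk* for *Slc32a1*, *Atp6v1g2* (0.79) and *Ccdc92b* for *Npy*, *Fam213b* (0.85) and *Ppp1r3f* for *Sst*, *Rims3* (0.83) and *9330179D12Rik* for *Pvalb*, *Zc3hc1* (0.82) and *Cyp2u1* for *Vip*, *Acer3* after *Grik1* for *Reln*, and *Ykt6* (0.74) and *Gpatch3* for *Lhx6*.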

How the data were processed

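RNA from the HIP and EC of 11 mice was sequenced by the study as single-end 50 bp reads, aligned to GRCm38 with Hisat2 and counted per gene with HTSeq-count, and the authors deposited 1 table of raw counts for all 22 libraries, whose columns matched the labels with 0 left unmapped. The methods and the labels name different library kits, and the strand setting is not given in the sources used here. The authors' comparison tables (log2 fold changes, p-values and scores from DESeq2 and FCROS) were not used.

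Symbols came from GENCODE M21 for 55144 of 55385 identifiers. Counts were scaled by TMM (factors 0.953 to 1.049) and tested over all genes that passed filterByExpr with the quasi-likelihood test of edgeR 4.0.16 in R 4.3.3, Benjamini-Hochberg adjustment over every gene in the fit, and a threshold of 0.05. In all 5 comparisons were fitted, each on its own libraries: genotype in each region, region in each genotype, and genotype by region on all 22. DESeq2 1.42.0 and limma 3.58.1 served as alternatives, as did other normalization, filters, blocks and leaving out single libraries. CPM used TMM over all libraries, and log2 CPM a prior count of 2. Between genotypes within a region, p-values rest on the spread between mice with 1 library each, which includes that of dissection and library preparation. The main tests between regions and of genotype by region had no term for the animal. They take the 2 libraries of a mouse as independent, and the animal as a block was an alternative. The fits of genotype in the HIP, region in wt and genotype by region were also run on simulated counts. These had the same spread for all genes and no pairing of libraries by mouse. They therefore do not test the fits on libraries of the same mouse.

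Within a region, wt and Ts66Yah mice share replicate numbers by name alone. Same-numbered HIP and EC libraries of a genotype come from the same mouse by the titles (correlation of deviations 0.202 to 0.61 in wt, 0.334 to 0.546 in Ts66Yah).

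The 10 genes and the lists were chosen with earlier results of these data known. All 10 were named with every comparison, and of each list the called genes, or else the one with the smallest p. Between regions, called genes were named in wt for the lists of interneuron genes and counted elsewhere, and lists of other cell types were given by counts, medians and sums. Some list genes are not reported here by name, but stay in the counts and medians. Further list genes, and the ratios to *Gad1*, were chosen after their values were seen.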

Additional observations from a re-analysis of the deposited data

Results flagged for a closer look

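In each group, the highest and the lowest library of each gene was compared with its nearest neighbour by Dixon's criterion at the 95% level, over 40 groups of 5 or 6 libraries, of which chance flags about 1 in 20. It marked 5. Ts66Yah mouse 5 had the lowest *Gad2* of its group in both regions, 157 CPM in the HIP with the next at 196 and 172 CPM in the EC with the next at 213. The same mouse had the highest *Slc32a1* of the Ts66Yah EC libraries, 81.9 CPM with the next at 67.1. Over all genes its EC library was the least like its group, by a chi-square per gene between the counts of 2 libraries. Pairs with it had 33.78 to 59.82, the other Ts66Yah EC pairs 12.88 to 28.09, and wt EC pairs 20.56 to 54.83. Ts66Yah mouse 2 had the highest *Pvalb* in the HIP, 34.7 CPM with the next at 28.4, and without it the difference in the HIP was called. Ts66Yah mouse 4 had the highest *Reln* in the HIP, 111 CPM with the next at 91.6. A further rule asked that all Ts66Yah libraries of a gene lie above the wt mean in one region and below it in the other. It marked no gene. By estimate, the log2 fold changes of *Sst* (-0.51 and 0.11), *Cck* (-0.32 and 0.10) and *Slc32a1* (-0.06 and 0.09) had opposite signs in the HIP and EC.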

How the results depend on the processing

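Of the 10 genes, 0 were called between genotypes in the HIP by edgeR, but DESeq2 called 2 (*Sst* and *Pvalb*), no filter on low counts 1 and a term for the range of animal numbers, whose fit also leaves out wt mouse 1, 1 (both *Sst*), and leaving out 1 library gave 0 to 1 (*Sst* without wt mouse 1, *Pvalb* without Ts66Yah mouse 2). Why the tests differ on these genes was not tested. Counts for the EC and for genotype by region stayed at 0 under every alternative run. Between regions, leaving out 1 mouse gave 4 to 5 in wt and 7 in Ts66Yah. Over all genes, 109 were called in the HIP, beside 357 by DESeq2, 61 with the replicate block, 68 with the range term and 76 to 148 without 1 library, and 50 in the EC, beside 107 by DESeq2 79 in a fit of all 22 libraries and 37 to 58 without 1 library.

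Same-numbered wt and Ts66Yah libraries deviated together weakly (correlations of 0.005 to 0.118 in the HIP and 0.013 to 0.276 in the EC), and not every library was most alike its own number. With the replicate number as a block, 0 members were called between genotypes in either region, and *Sst* in the HIP had -0.49 on the log2 scale (edgeR adjusted p = 0.192). With the animal as a block the regional counts were 5 in wt and 8 in Ts66Yah, the pairing adding *Gad2* and changing no other call of a member, and that for genotype by region was 0.

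Of 838 values over 52 results, 38 changed sign, all of them uncalled, 787 kept direction and call, 7 gained the call and 6 lost it, among them *Htr3a* in the HIP with the range term (0.549). Outside the fits that leave out a library, the sign changed for *Lhx6* in the HIP (-0.0269) and *Cck* in the EC (-0.0429) with the range term. It also changed for *Cck* between regions in wt (-0.00663 with a filter of 1 CPM in 5 libraries and -0.000427 with the animal as a block). Further changes of sign were those of *Pvalb* between regions in Ts66Yah (-0.0447 by limma voom and -0.0247 with the animal as a block). By limma voom, *Npy* (0.00502) and *Lhx6* (-0.000606) changed sign for genotype by region. Leaving out 1 library gave, between genotypes in the HIP, -0.0162 to 0.0476 for *Gad1*, -0.519 to 0.0225 for *Cck* and -0.00681 to 0.104 for *Lhx6*, and in the EC -0.0196 to 0.327 for *Sst* and -0.0453 to 0.475 for *Cck*. Leaving out 1 mouse gave, between regions, -0.109 to 0.061 for *Pvalb* and -0.109 to 0.155 for *Cck* in wt and -0.195 to 0.219 for *Pvalb* in Ts66Yah. For genotype by region it gave -0.0082 to 0.0416 for *Gad1*, -0.0785 to 0.0627 for *Npy*, -0.148 to 0.268 for *Pvalb*, -0.117 to 0.0724 for *Vip* and -0.0686 to 0.0707 for *Lhx6*.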
